A study of Mus musculus with 32 samples.

Results

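In 3330 places on chromosomes 1 to 19 of the mouse genome, a site of open chromatin listed for liver endothelial cells but not for Kupffer cells lay within 1 kb of a site listed for Kupffer cells but not for endothelial cells. These 3330 endothelial-only peaks were 8.91% of the 37387 on those chromosomes. They were chosen from the peak positions themselves. A peak counted as endothelial-only or Kupffer-only when it overlapped no peak of the other cell type's list by even 1 bp, and as shared otherwise. An endothelial-only peak entered when a Kupffer-only peak lay within 1 kb, edge to edge, and no shared peak of either list lay within 1 kb of it. The nearest Kupffer-only peak was taken as its partner. Together the lists hold 229137 peaks on all sequences.

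ATAC-seq, which uses a transposase to insert sequencing adapters into accessible DNA, was applied to endothelial cells and Kupffer cells isolated from livers of male C57BL/6J mice on normal chow. The labels describe 32 libraries in 8 groups of 4 replicates: either cell type, from wild-type mice or mice with a REV-ERB a/b double knockout, at ZT10 or ZT22 (hours after lights on). The series' design text places the knockout in adult hepatocytes, so the profiled cells are not the targeted ones; how the deletion was driven is not given in the sources used here. Each cell type has 1 list of peak positions with no library of origin. Knockout against wild type and ZT22 against ZT10 were therefore not analysed here, and nothing below is replicated.

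Liver sinusoidal endothelial cells line the hepatic capillaries and take up waste molecules through scavenger receptors. Kupffer cells are the macrophages that sit in the same capillaries and clear particles, microbes and old red cells. Open chromatin away from promoters mostly marks enhancers, short stretches where transcription factors displace nucleosomes. Which enhancers open depends on the factors a lineage expresses. Well-known examples are PU.1, C/EBP and MAF family proteins in macrophages. In endothelium they are GATA and SOX family proteins and ETS family proteins other than PU.1. Enhancers that act in different lineages can lie close together. The lists cannot show that paired sites are alternatives in use, since a peak missing from a list was only not called there, and its accessibility in that cell type is not known to be zero. The lists also cannot be checked against cell-type markers, because no annotation of their build (mm9) was used. Positions below are on mm9 and counted from 1.

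Most members had only 1 Kupffer-only peak close by. Of the 3330 endothelial members, 2870 (86.2%, 95% exact binomial interval 85.0% to 87.3%) had 1 Kupffer-only peak within 1 kb, 410 had 2, 47 had 3 and 3 had 4. The members drew on 3102 distinct Kupffer-only partners, 3.79% of all 81942 on chromosomes 1 to 19. Of those partners 2892 served 1 member, 194 served 2, 14 served 3 and 2 served 4. In 3071 pairs (92.2%) each peak was also the other's nearest peak of the other kind. Another endothelial-only peak lay within 1 kb of 563 members (16.9%, 15.6% to 18.2%). Members covered 645 kb in all and their distinct partners 604 kb. These intervals and those below treat peaks as independent and cover counting error only; they say nothing about variation between mice, and the read depth is unknown.

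An endothelial-only peak lay beside its own kind more often than beside a Kupffer-only peak. Another endothelial-only peak stood within 1 kb, under the same condition on shared peaks, for 6423 endothelial-only peaks (17.2%, 16.8% to 17.6%), against the 3330 (8.91%, 8.62% to 9.20%) with a Kupffer-only neighbour. Kupffer-only peaks were nevertheless 2.19 times as numerous. Seen from the Kupffer side, 3500 Kupffer-only peaks (4.27%, 4.13% to 4.41%) had an endothelial-only peak within 1 kb and no shared peak, against 21777 (26.6%, 26.3% to 26.9%) with another Kupffer-only peak. Without the condition on shared peaks, 4865 endothelial-only peaks (13.0%) had a Kupffer-only peak within 1 kb. The condition removed 1535 of them, 31.6%. It was set on the endothelial peak alone, and 279 of the 3102 partners (8.99%) had a shared peak within 1 kb. By definition, endothelial and Kupffer peaks that overlapped counted as shared and could not be unlike neighbours. No peak was taken out for lying close to its own kind. The part of this definition in the differences between like and unlike neighbours was not tested.

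The gap between the peaks of a pair had a median of 411 bp, with quartiles of 164 and 709 bp. From centre to centre the median was 610 bp. The shortest gaps were the most common: 283 pairs lay less than 50 bp apart and 540 (16.2%) less than 100 bp apart. Numbers then fell to 337 pairs at 200 to 299 bp and stayed between 235 and 336 in each class of 100 bp up to the limit. Endothelial-only peaks beside their own kind had a shorter median gap of 293 bp, and Kupffer-only peaks beside their own kind one of 315 bp. Gaps between Kupffer-only peaks were most frequent not at the shortest distances but at 150 to 199 bp, which held 9.68% of them, against 6.51% below 50 bp. Pairs of unlike kind had no such maximum: 5.50% of their gaps fell at 150 to 199 bp and 8.50% below 50 bp. Endothelial-only neighbours resembled the unlike pairs in that respect, with 7.88% and 11.4%. Because the rule itself caps the gap, these are descriptions of its inside.

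**Figure D1:**
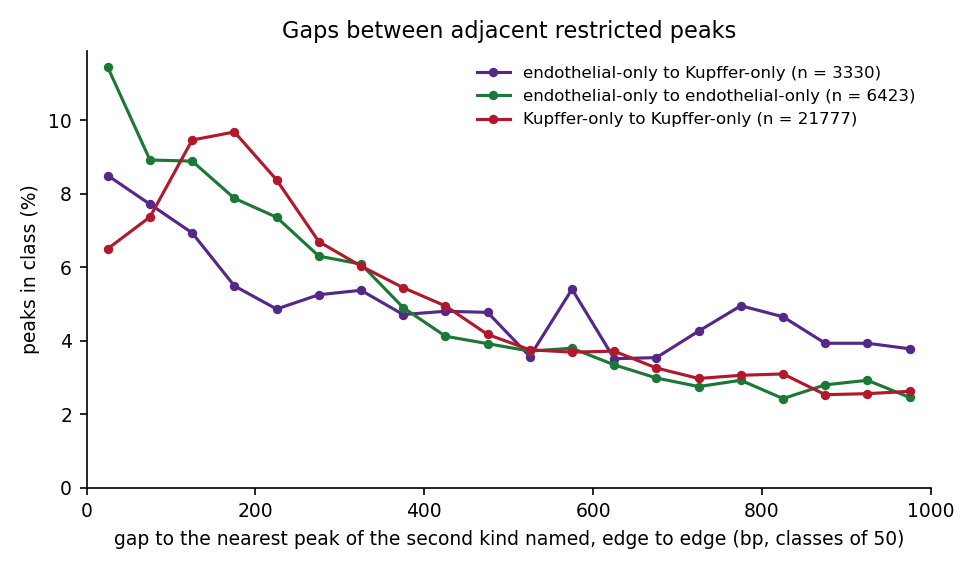
Share of peaks (%) by the gap to the nearest peak in classes of 50 bp, for 3330 endothelial-only peaks with a Kupffer-only neighbour (violet), 6423 endothelial-only peaks with an endothelial-only neighbour (green) and 21777 Kupffer-only peaks with a Kupffer-only neighbour (red). The red curve peaks at 150 to 199 bp (9.68%), while the violet curve starts at 8.50% below 50 bp and varies between 3.51% and 5.50% from 150 bp on.

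Neither limit of the rule fell at a break in the data. The last 100 bp inside the limit (901 to 1000 bp) held 257 endothelial-only peaks, the next 100 bp outside it held 312, and the classes of 100 bp from 1001 to 3000 bp held a median of 217 (lowest 183, highest 312). At the limit set for shared peaks, 72 endothelial-only peaks with a Kupffer-only neighbour had their nearest shared peak at 901 to 1000 bp and were left out, and 72 had it at 1001 to 1100 bp and were kept. At the opposite end, touching peaks pass into overlapping ones. On chromosomes 1 to 19, 1110 endothelial peaks overlapped a Kupffer peak by 1 to 50 bp and 2808 by 51 to 100 bp, and all of these count as shared. The nearest Kupffer peak of any kind lay within 49 bp of 842 endothelial-only peaks, of which the 283 members are a part. Whether a pair a few bases apart is 1 site with displaced edges or a pair of sites was not tested.

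The closest pairs show what the ends of the rule look like. In 3 pairs the peaks touched. At chr1:88388677-88388960, 284 bp wide, the endothelial peak ended where the 237 bp Kupffer peak at chr1:88388961-88389197 began. The other touching pairs were chr12:35407896-35408046 (endothelial, 151 bp) with chr12:35408047-35408279 (Kupffer, 233 bp), and chr2:148726382-148726532 (endothelial, 151 bp) with chr2:148726164-148726381 (Kupffer, 218 bp). A further 7 pairs were separated by 1 bp. The wider ones were chr8:12279731-12280058 (endothelial, 328 bp) with chr8:12279579-12279729 (Kupffer, 151 bp), and chr2:142263785-142264080 (endothelial, 296 bp) with chr2:142264082-142264232 (Kupffer, 151 bp). Both of these lay far from any shared peak, at 206839 and 172903 bp. At the far end, the endothelial peak chr3:51537750-51537976 and the Kupffer peak chr3:51536583-51536749 were 1000 bp apart. Gaps of 999 bp separated chr2:14263346-14263612 from chr2:14262133-14262346 and chr3:153567664-153567878 from chr3:153568878-153569028, and 998 and 997 bp those of the next pairs, on chromosomes 17 and 7.

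Over all pairs, the kinds had no clear order along the chromosome. The endothelial-only peak had the lower coordinate in 1719 pairs, 51.6% (49.9% to 53.3%), an interval that includes an even split. In the 10 gap classes of 100 bp the share ranged from 48.5% to 57.3%. The highest was that of the 286 pairs at 800 to 899 bp, and intervals were not computed for single classes. This order is that of the genome's numbering; the direction of transcription was not used.

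Members were often of the smallest common width, but no more often than endothelial-only peaks near a shared peak. Peak width was not part of the rule. The smallest common width, 151 bp, is the most frequent width of the endothelial list. It is also the lowest width of endothelial-only peaks, while Kupffer-only peaks go down to 30 bp. Of the members, 1674 (50.3%, 48.6% to 52.0%) were exactly 151 bp wide, against 42.0% (41.4% to 42.6%) of the 27551 endothelial-only peaks with neither a Kupffer-list peak nor a shared peak within 1 kb, and 36.6% (35.4% to 37.8%) of endothelial-only peaks beside their own kind. All 37387 endothelial-only peaks gave 44.7% (44.1% to 45.2%), and the whole endothelial list on chromosomes 1 to 19 gave 34.6%. The 6506 endothelial-only peaks with a shared peak within 1 kb, which the rule leaves out, reached 53.1% (51.9% to 54.4%), an interval that overlaps that of members. Of the 3102 partners, 1107 (35.7%, 34.0% to 37.4%) were 151 bp wide, against 26.1% (25.7% to 26.4%) of the 63229 Kupffer-only peaks without an endothelial-list or shared peak within 1 kb, 22.0% (21.4% to 22.5%) of those beside their own kind and 26.1% of the whole Kupffer list. The share was 27.5% (27.2% to 27.8%) of all Kupffer-only peaks and 31.6% (30.8% to 32.3%) of the 15213 with a shared peak within 1 kb. In both cell types, peaks beside their own kind were less often 151 bp wide than peaks of unlike pairs. Here and below these sets are not separate: 563 members are also endothelial-only peaks beside their own kind. The Kupffer sets can overlap likewise. The height of a peak is not in the lists, and how width relates to it was not tested.

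Members had a median of 151 bp (upper quartile 227 bp), endothelial-only peaks without a Kupffer neighbour one of 180 bp (upper quartile 236 bp) and those beside their own kind one of 192 bp. Partners had a median of 188 bp, against 196 and 199 bp in the corresponding Kupffer sets. Peaks over 250 bp were 16.7% (15.4% to 18%) of members and 18.6% (18.2% to 19.1%) of endothelial-only peaks without a Kupffer neighbour. Among Kupffer-only peaks the same width was reached by 11.6% (10.5% to 12.8%) of partners and 12.1% (11.8% to 12.3%) of those without an endothelial neighbour, intervals that overlap.

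Peaks of 151 bp were most frequent in the pairs less than 50 bp apart, and the share did not fall steadily beyond them. At gaps below 50 bp, 64.0% (58.1% to 69.6%) of members and 50.5% (44.5% to 56.5%) of partners were 151 bp wide. At 50 to 99 bp the shares were 48.2% (42.0% to 54.5%) and 38.1% (32.2% to 44.4%), and at 100 to 199 bp 58.5% (53.5% to 63.2%) and 41.1% (36.3% to 46.0%). At 700 to 1000 bp they were 45.9% (42.5% to 49.3%) and 33.4% (30.2% to 36.7%). Both peaks of a pair were 151 bp wide in 33.9% of the pairs below 50 bp and in 17.4% of those at 700 to 1000 bp. Endothelial-only peaks beside their own kind gave 45.6% below 50 bp, 43.5% (39.4% to 47.6%) at 50 to 99 bp, 32.5% at 100 to 199 bp and 36.7% at 700 to 1000 bp. Kupffer-only peaks beside their own kind gave 31.9%, 23.7%, 21.3% and 21.5% in those classes. A wide peak extends further towards its neighbour, so narrow peaks can lie close without overlapping; the part of this geometry in the shares at short gaps was not tested. At 50 to 99 bp the interval of members overlapped that of endothelial-only peaks beside their own kind. At 400 to 699 bp, members (46.4%, 43.0% to 49.8%) were more often 151 bp wide than endothelial-only peaks beside their own kind at the same distance (34.8%, 32.3% to 37.4%).

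**Figure D2:**
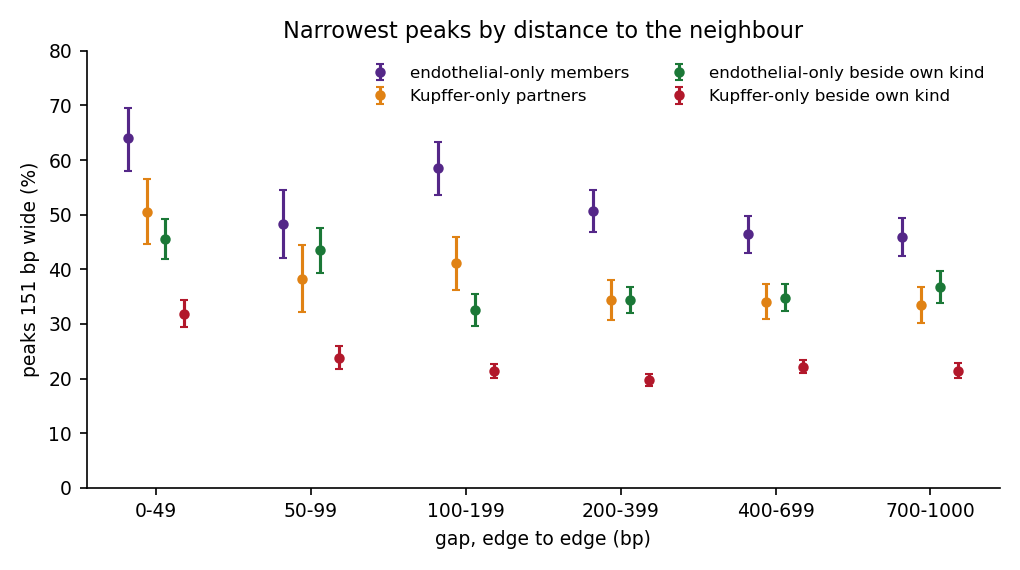
Share of peaks exactly 151 bp wide (%) by the gap to the neighbour (bp), for endothelial-only members (violet), their Kupffer-only partners (orange), endothelial-only peaks beside their own kind (green) and Kupffer-only peaks beside their own kind (red); bars are 95% exact binomial intervals. Members stand at 64.0% below 50 bp, 48.2% at 50 to 99 bp, 58.5% at 100 to 199 bp and 45.9% at 700 to 1000 bp, and partners lie above Kupffer-only peaks beside their own kind in each class.

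Within a pair the widths were nearly unrelated (Spearman coefficient 0.02 over 3330 pairs, a description, since pairs share lists and some share partners). The partner was the wider peak in 1475 pairs (44.3%), the endothelial member in 1192 (35.8%), and 663 (19.9%) had equal widths, 659 of them at 151 bp. Where both peaks exceeded 151 bp, in 1099 pairs (33.0%), the endothelial member was the wider in 635 (57.8%, 54.8% to 60.7%). The greater width of partners over all pairs therefore went with the larger number of 151 bp peaks among members. Both peaks were at least 200 bp wide in 476 pairs (14.3%).

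The 5 widest pairs were taken by the sum of both widths, and in some of them 1 peak holds most of it. The largest summed width, 776 bp, belonged to chr7:90958763-90959339, an endothelial peak of 577 bp, the widest of all members, with the 199 bp Kupffer peak chr7:90958342-90958540 at a gap of 222 bp. Next came chr11:109239403-109239734 (332 bp) with its Kupffer partner chr11:109238650-109239081 (432 bp), 321 bp apart. On chromosome 1, the endothelial peak chr1:134232089-134232449 (361 bp) and the Kupffer peak chr1:134231599-134231947 (349 bp) lay 141 bp apart. Chosen after the values were seen, this pair has the widest narrower peak of all pairs. A second pair on chromosome 1 joined chr1:154524781-154525269 (489 bp) and chr1:154524341-154524550 (210 bp) at 230 bp. The pair chr13:51976741-51977156 (endothelial, 416 bp) and chr13:51977224-51977502 (Kupffer, 279 bp) had a gap of 67 bp. In 4 of these 5 pairs the Kupffer peak had the lower coordinate.

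Members had more Kupffer-only peaks around them than other endothelial-only peaks had, but about as many as Kupffer-only peaks had. Counting only peaks more than 1 kb and up to 50 kb away, which leaves out those the rule used, members had a mean of 9.02 Kupffer-only peaks around them (median 8, quartiles 5 and 12). Endothelial-only peaks without a Kupffer neighbour had 5.12 (median 4, quartiles 1 and 8), and those beside their own kind 5.46 (median 4). Around all Kupffer-only peaks the mean was 8.91, and around Kupffer-only peaks beside their own kind 10.1. The mean number of endothelial-only peaks around was 4.30 for members, 4.22 for endothelial-only peaks without a Kupffer neighbour and 5.2 for those beside their own kind. Shared peaks were again more numerous around members, with a mean of 6.42 against 4.24 and 4.77. The nearest shared peak lay at a median of 6222 bp from members and 12360 bp from endothelial-only peaks without a Kupffer neighbour. Where Kupffer-only peaks are dense, a Kupffer-only peak is also more likely to fall within 1 kb of any point. The part of the rule in the difference in Kupffer-only peaks around was not tested.

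The partners gave the mirror image. Around the 3102 partners there was a mean of 4.28 endothelial-only peaks at 1 to 50 kb, against 2.47 around Kupffer-only peaks without an endothelial neighbour. Kupffer-only peaks themselves were about as numerous around both, with means of 8.96 and 8.84. More Kupffer-only than endothelial-only peaks surrounded 2530 members (76.0%, 74.5% to 77.4%) and 47.8% (47.2% to 48.4%) of endothelial-only peaks without a Kupffer neighbour. The reverse was true of 608 members (18.3%) and of 40.7% of the others. Partners and members were chosen for a peak of the other kind within 1 kb, while the comparison sets had no such neighbour. The part of this choice in the differences was not tested.

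The share of endothelial-only peaks in a pair was larger in each higher class of the number of Kupffer-only peaks around. Among the 30881 endothelial-only peaks with no shared peak within 1 kb, 10.8% were members. With no Kupffer-only peak at 1 to 50 kb the share was 1.88% (111 of 5919, 1.55% to 2.25%). It was 6.38% (5.91% to 6.88%) with 1 to 4, 14.2% (13.4% to 15%) with 5 to 9, 18.5% (17.4% to 19.6%) with 10 to 14, 24.7% (22.6% to 26.9%) with 15 to 19, and 31.7% (157 of 495, 27.6% to 36.0%) with 20 or more. Over the same classes the share beside their own kind stayed between 19% and 21.2%. The number of endothelial-only peaks around had no comparable relation with pairs: 8.23% (7.39% to 9.13%) with none, 11.6% (11% to 12.3%) with 5 to 9 and 3.26% (3 of 92, 0.678% to 9.23%) with 20 or more. The share beside their own kind went from 11.4% to 39.1% over those classes. With the number of shared peaks around, the share in a pair was again larger in each higher class: 3.05% (2.62% to 3.54%) with none, 8.64% (8.15% to 9.15%) with 1 to 4, 14.8% (14.1% to 15.5%) with 5 to 9, 19.2% (17.8% to 20.6%) with 10 to 14, 20.2% (17.2% to 23.5%) with 15 to 19 and 24.4% (20 of 82, 15.6% to 35.1%) with 20 or more. In the last 3 of these classes the intervals overlap. The larger share was thus seen with Kupffer-only and with shared peaks around, and their parts were not separated. Where more peaks of a kind lie around, 1 of them is also more likely to fall within 1 kb. The part of this counting in the shares was not tested. For 106 members (3.18%) the partner was the only Kupffer-only peak within 50 kb.

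**Figure D3:**
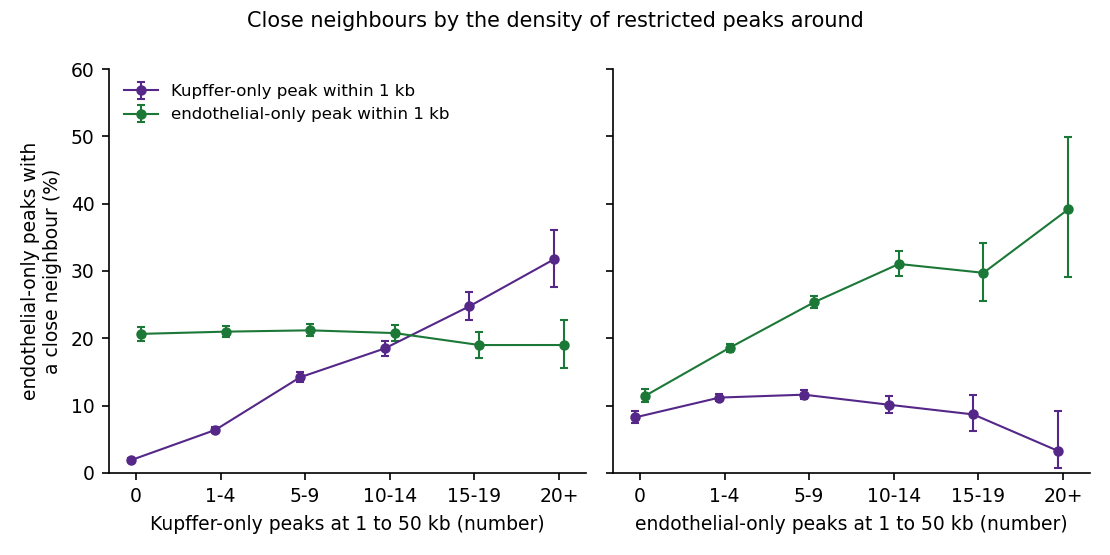
Endothelial-only peaks with no shared peak within 1 kb: the share (%) with a Kupffer-only neighbour within 1 kb (violet) and with an endothelial-only neighbour (green), by the number of Kupffer-only peaks (left) or endothelial-only peaks (right) at 1 to 50 kb; bars are 95% exact binomial intervals. On the left the violet points go from 1.88% to 31.7% while the green points stay between 19% and 21.2%. More peaks of a kind around also make a close neighbour of that kind more likely, and this part was not tested.

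The share of 151 bp peaks did not follow this density. With 1 to 4 Kupffer-only peaks around, 53.9% (50.0% to 57.9%) of members were 151 bp wide, and with 15 or more 49.9% (45.7% to 54.2%). Endothelial-only peaks without a Kupffer neighbour gave 40.5% (39.5% to 41.5%) and 42.0% (39.5% to 44.5%) in the same classes. The intervals of members lay above those of the comparison set in these classes and with 5 to 9. They overlapped with 10 to 14, at 48.2% (44.8% to 51.6%) against 44.0% (42.4% to 45.7%), and with none, at 46.8% (37.3% to 56.6%, 111 members) against 40.9%. The closest pairs made up a slightly larger part in sparse regions: gaps under 100 bp were 19.9% (17.1% to 22.9%) of pairs with up to 4 Kupffer-only peaks around and 13.7% (11% to 16.9%) with 15 or more. The median gap was 390 and 414 bp.

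Restricted peaks of either kind were split almost evenly between the sides of a pair. If each pair is turned so that the Kupffer peak lies on the right, 51.6% (49.8% to 53.5%) of the Kupffer-only peaks 1 to 5 kb beyond the pair lay on the Kupffer side, 51.1% (50.1% to 52.1%) at 5 to 20 kb and 50.7% (49.9% to 51.4%) at 20 to 50 kb. The endothelial-only peaks were as evenly split, with 51.5% (48.8% to 54.1%), 49.3% (47.9% to 50.7%) and 49.3% (48.2% to 50.4%) on the Kupffer side. Of the 6 intervals 1 missed an even split, that of Kupffer-only peaks at 5 to 20 kb. The peaks around neighbouring pairs are counted more than once, so the intervals are too narrow.

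Runs of restricted peaks that included a pair were mostly short. When restricted peaks up to 1 kb apart were joined, whatever shared peaks lay between them, the 3330 members fell into 3076 runs. Of these, 2051 (66.7%, 65.0% to 68.3%) held 1 peak of each kind, 715 held 3 peaks and 310 held 4 or more. The 2051 change kind at 1 place by construction. Among runs of 3, the single peak stood at an end in 551 (77.1%, 73.8% to 80.1%), most often 1 endothelial-only peak followed or preceded by 2 Kupffer-only peaks (350 runs) or 2 endothelial-only peaks with 1 Kupffer-only peak (201 runs). An endothelial-only peak between 2 Kupffer-only peaks occurred in 94 runs, and a Kupffer-only peak between 2 endothelial-only peaks in 70. Of the 3 places in a run of 3, 2 are ends, so most orders put the single peak at an end. Runs of 4 or more peaks changed kind at 1 place in 154 of 310 cases (49.7%, 44.0% to 55.4%). What a random order of the same peaks would give was not computed for runs of 3 or more.

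Kinds alternated most often in 4 runs, each with 4 changes. The run at chr2:131935444-131940644 held 5 Kupffer-only and 2 endothelial-only peaks, the latter at chr2:131937240-131937424 (185 bp) and chr2:131939153-131939303 (151 bp). A tighter run, chr2:166570118-166572074, alternated throughout: Kupffer-only peaks of 199, 203 and 199 bp enclosed 2 endothelial-only peaks of 151 bp, and 3 of its 4 gaps were 46, 49 and 62 bp. At chr3:87952340-87955062 there were 4 Kupffer-only and 3 endothelial-only peaks, including the endothelial peak chr3:87953284-87953438, which lay 18 bp from a Kupffer-only peak on one side and 2 bp on the other. On chromosome 4, chr4:129661063-129663868 held 3 peaks of each kind, of which 5 were 151 bp wide. The longest runs had 8 peaks, 7 of them Kupffer-only around 1 member, at chr3:106900243-106905098 and chr9:95537768-95541951.

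Some peaks had several neighbours of the other kind. The 3 members with 4 Kupffer-only peaks within 1 kb were chr8:107153790-107153940, chr9:95538232-95538382 and chr14:63503673-63503823, each 151 bp wide. Their nearest partners were 51, 23 and 189 bp away. Conversely, 2 Kupffer-only peaks each served 4 members. The peak chr2:84227658-84227886 (229 bp) had endothelial-only peaks of 151 and 274 bp on its lower side, at gaps of 644 and 294 bp, and of 173 and 151 bp on its upper side, at 79 and 481 bp. The peak chr11:67269198-67269348 (151 bp) had 3 endothelial-only peaks on its lower side, of 191, 273 and 151 bp at gaps of 761, 407 and 226 bp, and 1 of 151 bp on its upper side at 67 bp. Such members share a partner and are not independent pairs.

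Pairs were spread over many windows, and some windows held several. Whether they gathered more than an even spread would give was not tested. They fell into 2494 windows of 100 kb, of which 1891 held 1 pair and 171 held 3 or more. Those 171 windows held 575 of the 3330 members. The fullest window, chr8:111200001-111300000, held 6 pairs among 10 endothelial-only, 21 Kupffer-only and 12 shared endothelial peaks. Its members ran from chr8:111254530-111254680 (151 bp) to chr8:111284832-111284982 (151 bp), with gaps of 226 to 873 bp, and 3 of them shared the Kupffer partner chr8:111261248-111261489 (242 bp).

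A further 10 windows held 5 pairs each. The window chr13:51900001-52000000 stood out for the width of its members: all 5 were wider than 151 bp, from 181 to 416 bp, and its median gap was 98 bp. It includes the wide pair with a 67 bp gap named above. In chr13:108600001-108700000, by contrast, all 5 members were 151 bp wide, and 27 Kupffer-only peaks surrounded 8 endothelial-only ones. Only 2 distinct partners served the 5 members of chr19:5000001-5100000, with gaps of 23 to 736 bp, and of chr2:84200001-84300000, which holds the partner of 4 members described above. The windows chr4:100800001-100900000 and chr11:3000001-3100000 had 14 endothelial-only peaks each, the most of the 11 windows, beside 12 and 15 Kupffer-only peaks. The other 4, chr4:133000001-133100000, chr8:122900001-123000000, chr11:118300001-118400000 and chr16:91800001-91900000, held 8 to 12 endothelial-only and 12 to 18 Kupffer-only peaks. Over the 11 windows, 27 of 56 pairs had the endothelial peak at the lower coordinate and 28 had an endothelial peak of 151 bp, close to the shares over all pairs.

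**Figure D4:**
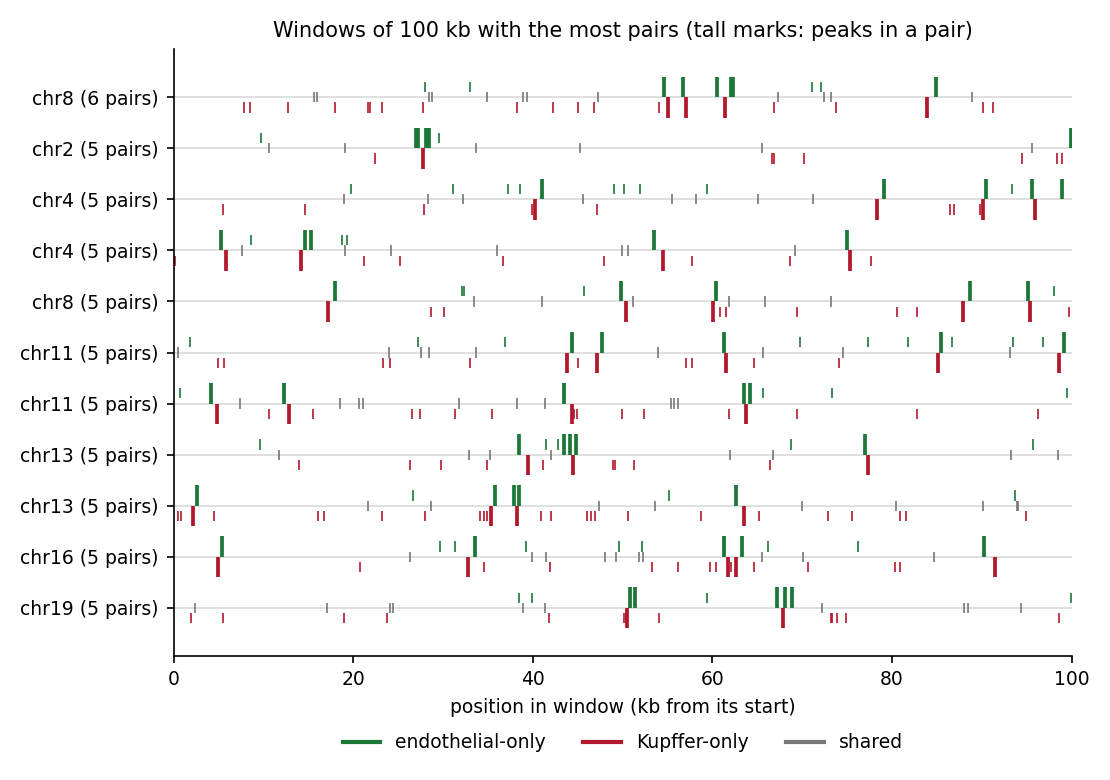
The 11 windows of 100 kb with the most pairs, 1 per line, with position in kb from the window's start on the horizontal axis; marks are endothelial-only (green, above the line), Kupffer-only (red, below) and shared endothelial peaks (grey), and tall marks are peaks that form a pair. Pairs lie at scattered places along most windows, and in the second line 4 tall green marks stand around 1 red mark.

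Chromosomes differed moderately in how many of their endothelial-only peaks were in a pair. The share was highest on chromosome 11, at 11.9% (269 of 2263, 10.6% to 13.3%), and on chromosome 19, at 10.8% (9.0% to 12.9%), whose intervals lay above the 8.91% of all chromosomes. It was lowest on chromosome 3, at 6.65% (129 of 1941, 5.58% to 7.85%), and chromosomes 1, 16 and 18 also had intervals below 8.91%, at 7.78%, 7.33% and 6.94%. The intervals of the other 13 chromosomes included it. Chromosomes 11 and 19 also had the most Kupffer-only peaks per Mb, 51.3 and 46.5, and chromosome 3 the fewest, 26.3. Over the 19 chromosomes the share and that density had a Spearman coefficient of 0.69, given as a description because both come from the same lists.

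**Figure D5:**
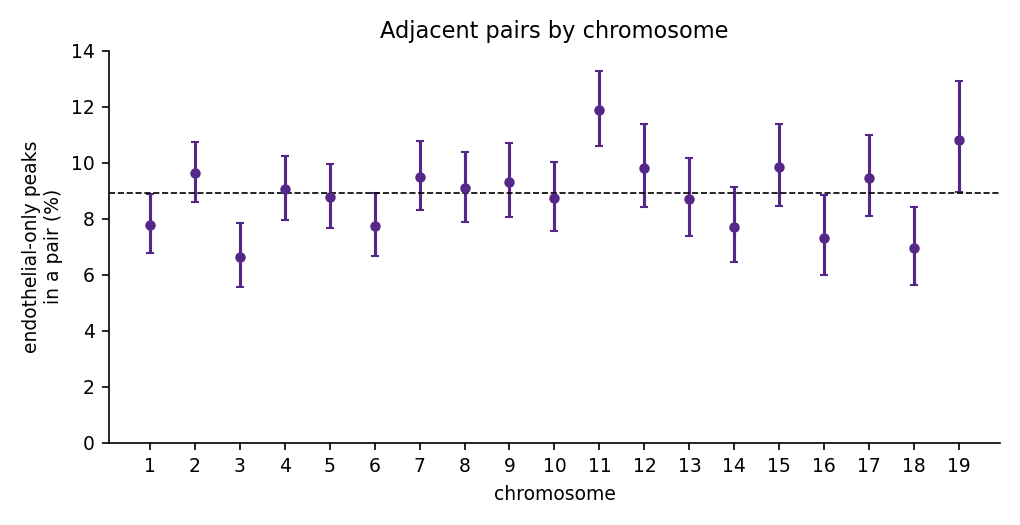
Share of endothelial-only peaks that are in a pair (%) for chromosomes 1 to 19, with 95% exact binomial intervals; the dashed line is the share over all of them, 8.91%. Chromosomes 11 (11.9%) and 19 (10.8%) lie above the line and chromosomes 1, 3, 16 and 18 below it with their whole interval.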

How the data were processed

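The authors deposited 1 peak list per cell type, with 3 columns (chromosome, start, end) and no score, count or library. The submitters' processing notes name Bowtie, HOMER and mm9. How peaks were thresholded, short fragments selected, transposase offsets treated and libraries merged is not given in the sources used here, and peak width depends on these steps. Sequence names of the mm9 style (8 ending in "_random") occur in the lists.

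Overlaps, gaps and counts were computed with NumPy 2.4.6 and pandas 2.3.3 in Python 3.11.15, with exact (Clopper-Pearson) 95% intervals from SciPy 1.17.1. The rule was tested on simulated data, and bedtools 2.31.1 gave the same 3330 members, compared by position. No test was run: the lists hold no replicates. Members, comparison sets and classes were chosen with earlier results of these data known. Sites were named by largest summed width (5), smallest and largest gap (5 each), most pairs per 100 kb window (ties included) and most neighbours. The gene, promoter and motif descriptions planned for an mm9 genome were not made, and no sequence is printed, since the reference tables are on GRCm38. The runs, the density classes and the sides of a pair were added after the lists were seen.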

Additional observations from a re-analysis of the deposited data

How the results depend on the processing

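The number of pairs follows the limits. It was 957 with a gap of up to 200 bp, 1947 up to 500 bp and 5755 up to 2 kb, 1912 with no shared peak within 5 kb, 7618 where sharing needed an overlap of 50% of both peaks (so that a pair may overlap) and 1903 without peaks of 151 bp. The median gap was 388 bp in mutually nearest pairs, 435 bp without peaks of 151 bp, 205 bp up to 500 bp and 571.5 bp for gaps of at least 200 bp, a setting chosen after seeing the data. Members had a median width of 225 bp and partners one of 212 bp without peaks of 151 bp, by construction, and members one of 162 bp at gaps of at least 200 bp. The excess of 151 bp peaks among members over endothelial-only peaks without a Kupffer neighbour, 8.30 percentage points, was 12.1 up to 500 bp and 5.46 at gaps of at least 200 bp, both added after seeing the data. The fullest window of 500 kb held 10 pairs. The other 23 of 39 alternative values stayed within their interval or within 1.5 times the value. Among them, the ratio of Kupffer-only peaks at 1 to 50 kb, 1.76, ranged from 1.75 to 2.03. A change of direction was looked for only in this ratio and in the excess of 151 bp peaks, and none was found. No paired analysis was possible because neither list has columns for single libraries, and no replicate could be left out. The alternatives for promoters, gene lists and motifs were not run. The unknown depth limits what a missing peak shows.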

Other observations

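The X chromosome, which lies outside the rule, held 41 pairs among its 700 endothelial-only peaks (5.86%, 95% exact binomial interval 4.24% to 7.86%), with a median gap of 318 bp. The same chromosome had 1868 Kupffer-only peaks. The mice were male and carry 1 copy of it, and whether either bears on the share was not tested.

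Pairs in which both peaks exceeded 151 bp and lay at least 200 bp apart numbered 848. They are the members least touched by the 151 bp width and by nearly touching edges.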
